A study of Mus musculus with 2 samples.

Results

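The 5 genes described here form 2 chemokine axes of the tumour. They are the ligand genes Cxcl9 and Cxcl10 with their receptor gene Cxcr3, and the ligand gene Cxcl16 with its receptor gene Cxcr6. They were chosen by name from the 27998 genes of the deposited tables, and all 5 were present in both. Single-cell RNA had been counted in CD45+ immune cells sorted from subcutaneous MC38-GFP tumours of C57BL/6 mice. MC38 is a mouse colon adenocarcinoma line, here carrying green fluorescent protein, and CD45 is a surface protein of leukocytes.

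Both groups had received 50000 tumour cells and the same anti-PD-1 antibody, an antibody against an inhibitory receptor of T cells, at a dose the labels call sub-optimal (100 ug on days 12, 15, 18 and 22). The first group was labelled as responding to the antibody and the second as not responding, and each was represented by 1 library. No untreated group was part of the series. The labels give neither the age of the mice nor how many stand behind a library. With 1 library per group no test was possible, there was no replicate check, and every difference below is one between these 2 libraries. Intervals in brackets are 95% intervals that cover counting error only. As background, CXCL9 and CXCL10 are secreted proteins that draw cells bearing the G protein-coupled receptor CXCR3, above all activated T cells and NK cells. Interferon-gamma induces both ligands in macrophages and dendritic cells, and type I interferon is a further strong inducer of CXCL10. CXCL16 is made as a membrane-bound protein that can be shed, serves also as a scavenger receptor for oxidised lipoproteins, and binds CXCR6, a receptor of effector, tissue-resident and exhausted T cells.

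After filtering, 4376 cells of the responder library and 2565 cells of the non-responder library remained, with medians of 10043 and 11752 unique molecular identifiers (UMIs, each a counted RNA molecule) per cell. Clusters were assigned to classes by marker genes, with the 5 genes left out of the genes used to cluster. The C1q macrophage-like class, in which RNA of the complement genes C1qa, C1qb and C1qc was abundant, held 3712 responder and 2139 non-responder cells. A myeloid cluster low in C1q RNA held 19 responder and 182 non-responder cells. Its leading genes included 3 neutrophil markers (S100a8, S100a9 and Retnlg) and 3 monocyte markers (Chil3, Plac8 and Hp). The dendritic marker Cd24a was also among them, so this class may hold more than monocyte-like cells. The dendritic-like class held 11 and 80 cells of the same libraries, and the T cell-like class held 91 and 67. Droplets with both T cell and macrophage RNA (93 responder and 24 non-responder) were kept apart, as were 2 macrophage clusters with a B cell or dendritic marker among their leading genes (384 responder and 29 non-responder cells). The CD45 gene Ptprc had a UMI in 77.7% of the responder library's cells and 74.2% of the other's, whereas the epithelial marker Epcam had 2 and 7 counts. Left unnamed were 62 responder and 24 non-responder cells. The largest unnamed cluster, 17 (40 and 4 cells), had 11 of 13 macrophage markers but a median of only 3216.5 UMIs. Cluster 18 (13 and 13 cells) was led by genes such as Serpinh1 and the fibroblast markers Dcn and Col3a1. Cluster 20 (9 and 7 cells) was led by genes such as Phgdh, Tnnt2 and Cald1. Few Epcam counts therefore do not show that the sort held no other cells. Across the libraries 14 cell barcodes were shared, and leaving out the cells that carried them changed the direction of none of the 5 class ratios given below.

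Cxcl9 and Cxcl10 lie beside each other on chromosome 5 of the GRCm38 build, both on the minus strand, at chr5:92321347-92328079 and chr5:92346638-92348889, with 18558 bases between them. GENCODE M21 annotates both as protein-coding with up to 4 exons. Their promoters are shown because both ligands are textbook targets of interferon and NF-kB signalling and yet had different levels across the cells below. The sequences are those of RefSeq on GRCm38.p6, from 250 bases before to 50 bases after the start site on the minus strand, at chr5:92328030-92328329 for Cxcl9 and chr5:92348840-92349139 for Cxcl10. Capitals mark each match to GAAANNGAA, the core letters of an interferon-stimulated response element, or to GGNNNTTCC, the core letters of an NF-kB site.
Cxcl9: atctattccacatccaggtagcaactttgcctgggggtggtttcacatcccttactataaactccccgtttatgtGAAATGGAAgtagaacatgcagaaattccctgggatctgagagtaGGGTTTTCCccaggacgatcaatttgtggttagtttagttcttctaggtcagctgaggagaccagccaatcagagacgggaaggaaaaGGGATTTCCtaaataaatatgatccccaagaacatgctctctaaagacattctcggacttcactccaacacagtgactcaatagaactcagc
Cxcl10: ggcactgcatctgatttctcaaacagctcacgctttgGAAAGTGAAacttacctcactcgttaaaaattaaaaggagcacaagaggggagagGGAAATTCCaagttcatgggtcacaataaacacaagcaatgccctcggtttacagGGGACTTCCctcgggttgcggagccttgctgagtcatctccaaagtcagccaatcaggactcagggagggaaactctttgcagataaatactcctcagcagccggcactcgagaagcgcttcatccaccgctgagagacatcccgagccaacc
Each promoter held 1 match to GAAANNGAA, with its first base at −175 from the start site in Cxcl9 and at −213 in Cxcl10. Each also held 2 matches to GGNNNTTCC, which began at −130 and −42 in Cxcl9 and at −158 and −103 in Cxcl10. Among all 32851 promoters of the table, 8.56% held GAAANNGAA and 18.5% held GGNNNTTCC on either strand, so these short letters are common. TTCNNNGAA, the letters of a gamma-activated site, was in 8.30% of all promoters and in neither window. The windows of Cxcr3 and Cxcr6 held none of the 3 patterns. No pattern overlapped another in the printed windows, and a match to letters is not evidence of a bound factor.

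Cxcl9 separated the libraries most among the ligands. In the C1q macrophage-like class its level was 712 CPM (UMIs of the gene per 1000000 UMIs of the class) [704 to 721] in the responder library and 61.2 CPM [58.3 to 64.2] in the non-responder library, from 27867 and 1682 counts. The log2 ratio, responder over non-responder, was 3.54 [3.47 to 3.61], which is 11.6-fold. With every cell thinned to 3000 UMIs, so that depth was equal, Cxcl9 was detected in 58.2% [56.6 to 59.8] of 3648 responder cells and 6.27% [5.28 to 7.38] of 2137 non-responder cells. At full depth the shares were 76.0% and 13.7%. T cell-like cells, which should make little of this ligand, had a Cxcl9 UMI after thinning in 22.1% of cells (responder) and 1.49% (non-responder). Their median depth before thinning was 3718 and 5088 UMIs, against 10201 and 12253 in the macrophages. Among 10749 genes with at least 50 counts in this class, 3.87% were at least 2-fold higher in the responder library and 4.22% at least 2-fold lower. Cxcl9 ranked 22 from the highest ratio. Of the other members, Cxcr6 and Cxcr3 were also past 2-fold there, from low counts given below, and Cxcl10 and Cxcl16 were not.

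Among the C1q macrophage-like, C1q-low, dendritic-like and T cell-like classes, the order for Cxcl9 was not the same in the libraries. In the responder library the C1q macrophage-like class came first, followed by 161 CPM [88.0 to 270.0] in dendritic-like cells, 147 CPM [85.8 to 236] in C1q-low myeloid cells and 99.8 CPM [71.3 to 136] in T cell-like cells, and these 3 intervals overlapped one another. In the non-responder library the dendritic-like class came first of these 4, at 96.7 CPM [76.2 to 121], above the C1q macrophages, whereas the C1q-low myeloid cells had 15.6 CPM [9.88 to 23.4] and the T cell-like cells 2.42 CPM [0.0612 to 13.5]. Counts behind the small classes were few, with 14 responder against 76 non-responder counts in dendritic-like cells and 17 against 23 in C1q-low cells. The 76 counts came from 10 of 80 cells. That is 12.5% [6.16 to 21.8] at full depth, against 13.7% of non-responder C1q macrophages. After thinning the shares were 11.25% [5.28 to 20.3] and 6.27%, so the first place of the dendritic-like class rests on few cells. In the C1q-low cells the log2 ratio was 3.24 [2.25 to 4.21], but the 17 responder counts came from 3 of 19 cells and the 23 non-responder counts from 8 of 182, so 3 cells set the responder level. The C1q macrophage-like cells held 91.6% of all Cxcl9 counts of the responder library and 91.2% of those of the non-responder library. The dendritic-like cells held 0.0460% and 4.12%.

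The T cell-like level of Cxcl9 in the responder library was set beside the macrophage RNA found in the same cells. These 91 cells held 541 counts of the C1q genes, and the ratio of Cxcl9 to C1q in macrophages of that library would give 15.4 Cxcl9 counts, where 40 [28.6 to 54.5] were found. In the non-responder T cell-like cells 1 count was found and the same ratio gave 0.987. For Cxcl10 the calculation gave 10.8 counts in responder and 5.62 in non-responder T cell-like cells, where 21 and 26 were found. For Cxcl16 it gave 27.8 and 17.7, where 27 and 33 were found. Counts above the C1q ratio were thus not particular to Cxcl9 or to the responder library. What put these counts into T cell droplets was not tested.

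**Figure D1:**
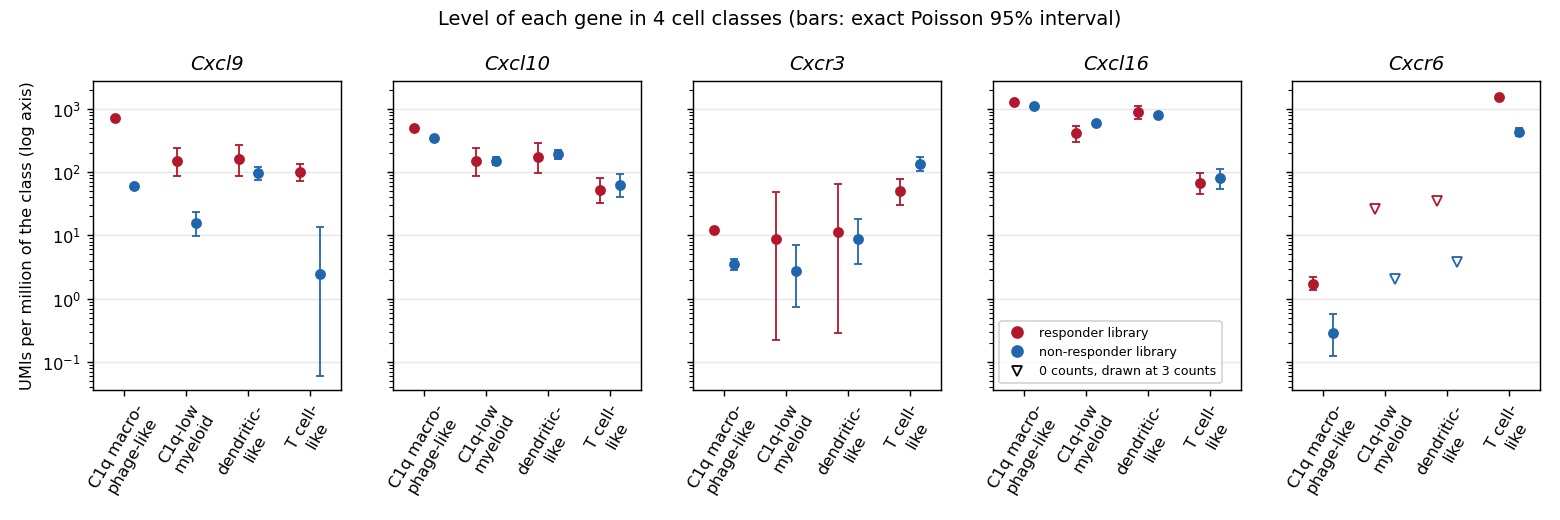
Level of each of the 5 genes in CPM (log axis) in 4 cell classes, with the responder library in red and the non-responder library in blue. Points are the sums over the cells of a class, bars are exact Poisson 95% intervals, and open triangles stand at 3 counts where none was found. Cxcl9 is far apart between the libraries in C1q macrophage-like, C1q-low and T cell-like cells. In C1q-low cells 3 responder cells held all responder counts, and T cell-like cells had 40 responder counts and 1 non-responder count. Cxcl10 and Cxcl16 are close, and the receptors peak in T cell-like cells, with Cxcr6 higher in the responder library and Cxcr3 lower.

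The macrophages of the libraries fell largely into different clusters, so each ligand was also read cluster by cluster. Of the C1q macrophage-like clusters, 8 had at least 20 responder cells and 7 at least 20 non-responder cells, and 4 of these had both. Most responder cells were in clusters 0, 2, 3, 4 and 6, and most non-responder cells in clusters 1, 5, 8 and 10, so that a cluster of mostly 1 library may be that library and not a type of cell. Across clusters Cxcl9 ran between 178 and 869 CPM in the responder library and between 27.1 and 204 CPM in the non-responder library. The lowest cluster was the same in both, cluster 5, which was led by Mmp12, Gpnmb and Hmox1. Every shared cluster had more Cxcl9 in its responder cells. In cluster 2, led by the monocyte genes Ly6i, Ly6c2 and Plac8, the levels were 677 and 101 CPM in responder and non-responder cells, a log2 ratio of 2.74 [2.10 to 3.48]. The log2 ratio was 1.82 [1.53 to 2.13] in cluster 4, led by the mitosis genes Top2a and Birc5, 2.71 [2.21 to 3.20] in cluster 5 and 1.54 [1.13 to 1.99] in cluster 6, led by Mgst1, C3 and Ccl5. The mean of these 4 ratios, 2.21, was smaller than the ratio over the class.

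Cxcl10 differed far less between the libraries and its direction depended on the cluster. Over the C1q macrophage-like class the level was 499.6 CPM [493 to 507] in the responder library and 348 CPM [341 to 355] in the non-responder library, from 19550 and 9579 counts, a log2 ratio of 0.52 [0.48 to 0.56]. It was detected in 39.1% [37.5 to 40.7] of thinned responder cells and 24.1% [22.3 to 26.0] of thinned non-responder cells (56.7% and 41.7% at full depth). In thinned T cell-like cells the shares were 18.2% and 13.4%. Within shared clusters, however, it was lower in responder cells of cluster 2 (350 against 835 CPM, log2 ratio −1.25 [−1.49 to −1.01]) and of cluster 4 (637 against 1209 CPM, log2 ratio −0.93 [−1.05 to −0.80]). It did not differ beyond counting error in cluster 5 (374 against 342 CPM, log2 ratio 0.13 [−0.17 to 0.42]) and was higher in responder cells of cluster 6 (274 against 122 CPM, log2 ratio 1.16 [0.69 to 1.68]). Weighted equally, these clusters gave a mean log2 ratio of −0.22, opposite in sign to the ratio over the class.

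Each library had 1 macrophage cluster led by interferon-stimulated genes such as Ifit3, Isg15, Rsad2 and Mx1, and Cxcl10 peaked there in both. Cluster 3, with 570 responder cells, had 965 CPM [940 to 991] of Cxcl10 and 664 CPM of Cxcl9. Cluster 10, with 205 non-responder cells, had 1359 CPM [1313 to 1406] of Cxcl10 and 133 CPM of Cxcl9. The responder cluster was thus lower in Cxcl10 and higher in Cxcl9 than its non-responder counterpart. The range of Cxcl10 over clusters was 3.52-fold in the responder library and 11.1-fold in the non-responder library, where cluster 6 was lowest at 122 CPM.

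**Figure D2:**
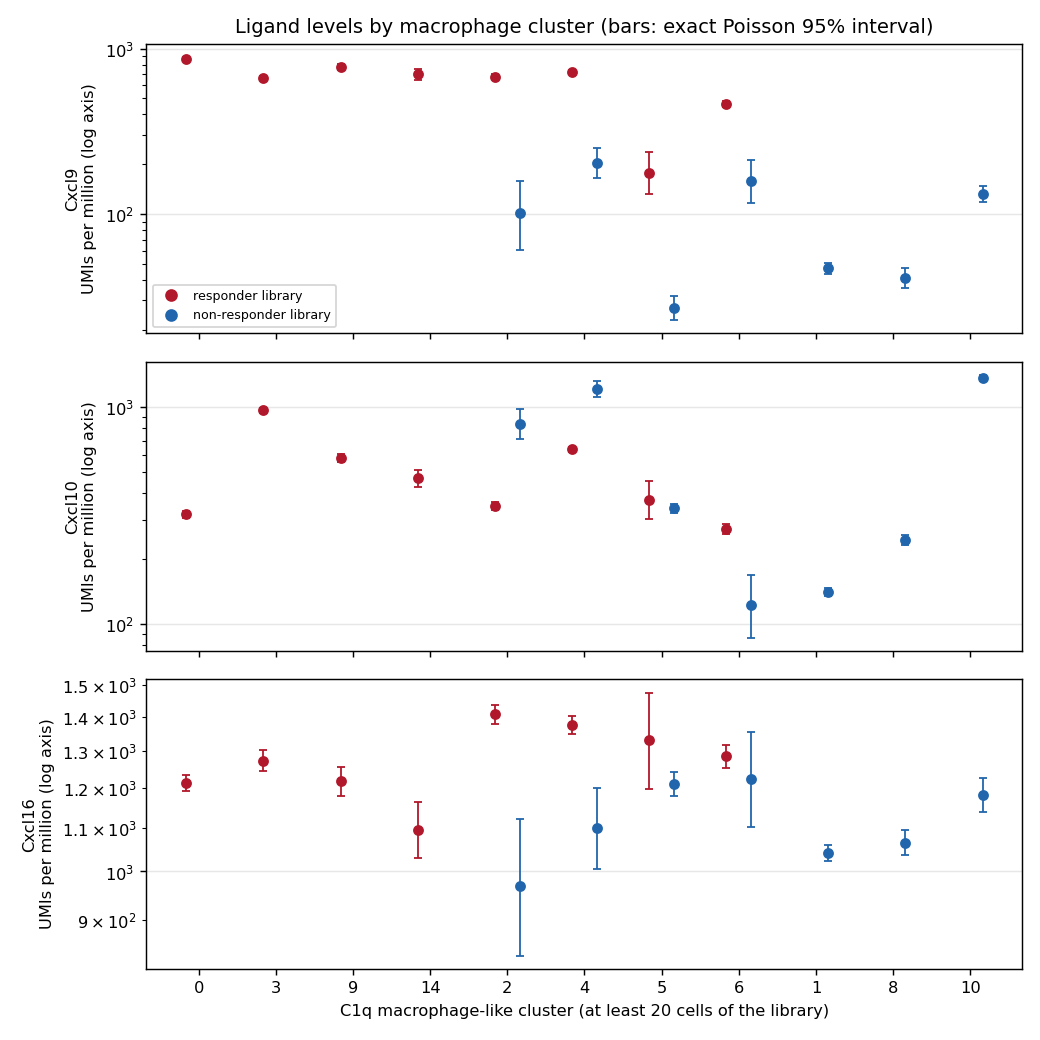
Levels of Cxcl9, Cxcl10 and Cxcl16 (CPM, log axes with different ranges) in each C1q macrophage-like cluster, drawn for a library where it had at least 20 cells, responder in red and non-responder in blue, with exact Poisson 95% intervals. In the shared clusters 2, 4, 5 and 6 the responder point is above for Cxcl9 each time, whereas for Cxcl10 it is below in clusters 2 and 4. Clusters 3 and 10, led by interferon-stimulated genes, have the highest Cxcl10 of their libraries.

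The balance of the CXCR3 ligands followed from this. In the C1q macrophage-like class there were 1.43 Cxcl9 counts for each Cxcl10 count [1.40 to 1.45] in the responder library and 0.176 [0.167 to 0.185] in the non-responder library. These are ratios of molecules captured at their 3' ends, not corrected for how well each transcript is captured. In responder cells the ratio was lowest in clusters 5 (0.475) and 3 (0.687) and highest in cluster 0 (2.72). In non-responder cells it was lowest in cluster 5 (0.0793) and highest in cluster 6 (1.30 [0.827 to 2.05]), whose interval overlapped that of no other non-responder cluster of the class.

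In the C1q-low, dendritic-like and T cell-like classes Cxcl10 was close between the libraries. In C1q-low myeloid cells it was 147 CPM [85.8 to 236] in responder and 149 CPM [130 to 170] in non-responder cells. These counts came from 9 of 19 responder and 43 of 182 non-responder cells. After thinning, the non-responder cell richest in Cxcl10 held 36 of the 90 UMIs of its class, so few cells set that level. Dendritic-like cells had 172 CPM [96.5 to 284] and 191 CPM [162 to 224], and T cell-like cells 52.4 CPM [32.4 to 80.1] and 62.9 CPM [41.1 to 92.1], again with the responder library first. In both libraries C1q macrophages were highest and T cell-like cells lowest, with overlapping intervals between the dendritic-like and C1q-low cells.

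Cxcl16 was the even ligand. The gene lies at chr11:70453983-70459984 on the minus strand and overlaps Zmynd15 on the opposite strand, which itself had 422 CPM in responder and 281 CPM in non-responder C1q macrophages. The sources used here do not say whether counting used the strand, so part of the reads of one gene could stand under the other. Cxcl16 had 1289.9 CPM [1279 to 1301] in responder and 1095 CPM [1082 to 1107] in non-responder C1q macrophages, from 50478 and 30101 counts, a log2 ratio of 0.24 [0.22 to 0.26]. Thinned cells with a count made up 96.0% and 92.5% of the class in the same order of libraries, and 99.6% of cells in each at full depth. In thinned T cell-like cells the shares were 15.6% and 14.9%. Across clusters its levels spanned 1.29-fold in the responder library and 1.26-fold in the non-responder library, against 4.88-fold and 7.52-fold for Cxcl9. The 4 shared clusters gave log2 ratios of 0.54, 0.32, 0.14 and 0.07, and the intervals of the last 2 included 0.

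By class, Cxcl16 had the same order in both libraries, and no neighbouring intervals overlapped. Dendritic-like cells followed the macrophages, with 885 CPM [698 to 1106] in responder and 796 CPM [734 to 860] in non-responder cells. C1q-low myeloid cells had 407 CPM [299 to 542] and 604 CPM [565 to 645], so here the responder level was lower, with a log2 ratio of −0.57 [−1.02 to −0.15] from 47 and 892 counts. T cell-like cells had 67.4 CPM and 79.8 CPM, which overlapped. In the macrophage clusters kept apart, Cxcl16 had 1151 CPM in 384 responder cells and 549.6 CPM in 29 non-responder cells, and Cxcl9 had 394 and 167 CPM.

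Within single macrophages the ligands were spread differently. In thinned responder cells the 10% of cells richest in Cxcl16 held 22.2% of its UMIs, against 42.7% for Cxcl9 and 63.8% for Cxcl10. In thinned non-responder cells these shares were 24.3% for Cxcl16 and 82.7% for Cxcl10, while for Cxcl9 only 6.27% of cells had any. The variance of UMIs per cell was 1.40 times the mean for Cxcl16, 3.91 times for Cxcl9 and 7.42 times for Cxcl10 in responder cells, and 1.67, 4.79 and 11.8 times in non-responder cells. The highest Cxcl10 value was 46 UMIs of 3000 in a responder cell and 55 in a non-responder cell. The ratio of variance to mean depends on the mean, so it does not rank the genes by how few cells hold their RNA.

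All 3 ligand genes were detected together in 23.8% [22.4 to 25.2] of thinned responder C1q macrophages and 1.82% [1.30 to 2.49] of non-responder ones. Exactly 1 ligand gene was detected in 28.2% [26.7 to 29.7] and 66.8% [64.8 to 68.8], in the same order of libraries, and that 1 gene was mostly Cxcl16. Cells with Cxcl9 and Cxcl10 together made up 24.5% [23.1 to 25.9] of responder and 1.87% [1.34 to 2.54] of non-responder cells. The product of the single shares was 22.8% and 1.51%, so co-detection was 1.08 [1.02 to 1.14] times the product in responder cells and 1.24 [0.887 to 1.68] times in non-responder cells. Both intervals are those of the joint share, with the product taken as fixed. Among responder cells with a Cxcl9 UMI 42.1% also had Cxcl10, against 34.9% of those without. Among non-responder cells the shares were 29.9% [22.3 to 38.4] and 23.7%. Within the 8 responder clusters the ratio to the product was between 1.04 and 1.65, and within the 7 non-responder clusters between 0 and 1.31, with 3 of them above 1.

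**Figure D3:**
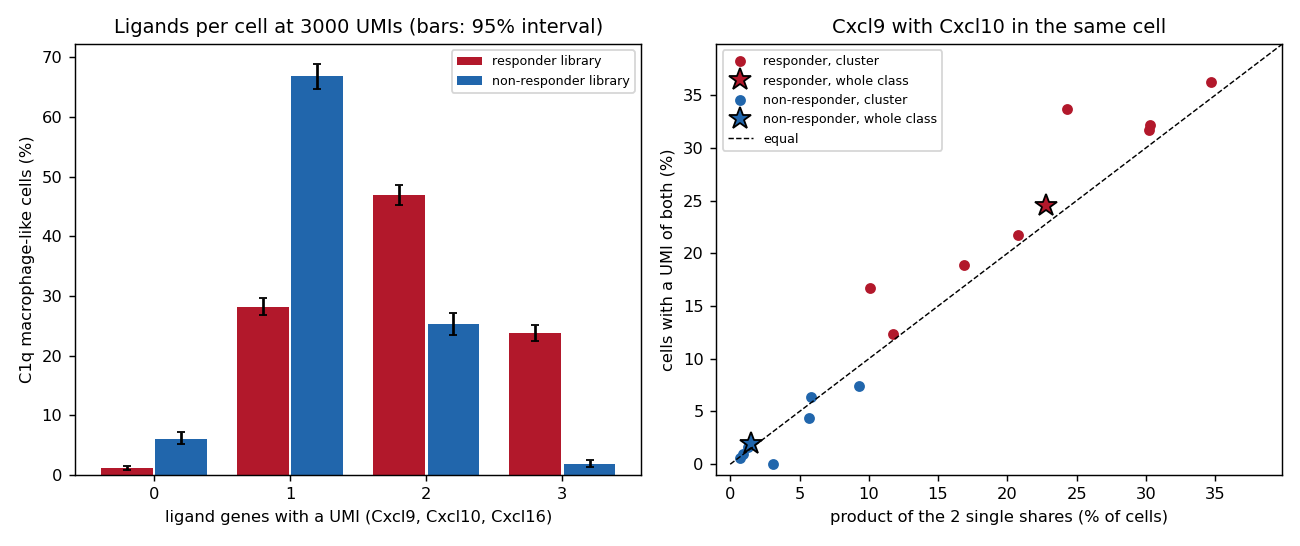
Left, share of C1q macrophage-like cells, thinned to 3000 UMIs, with a UMI of 0, 1, 2 or 3 of the ligand genes (bars: Clopper-Pearson 95% intervals), responder in red and non-responder in blue. Right, share of cells with both Cxcl9 and Cxcl10 against the product of the 2 single shares, for each cluster with at least 20 cells of a library and for the whole class (stars), with the line of equality dashed. Responder cells most often had 2 ligand genes and non-responder cells 1, and the stars lie just above the line.

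The genes most like each ligand across single macrophages were not the other ligands. Likeness was the Pearson correlation of log-scaled counts over the thinned cells of the class, the lower of the values in the 2 libraries, ranked over 4119 genes. These cells share their library and depth, their counts are sparse, and the values are given as a description. Nearest to Cxcl9 were AW112010 (0.21 in responder and 0.21 in non-responder cells), the interferon-inducible GTPase gene Gbp2 (0.16 and 0.30) and the antigen presentation genes H2-Eb1 (0.17 and 0.16), H2-Aa, H2-Ab1 and Cd74. Nearest to Cxcl10 were the chemokine gene Ccl12 (0.28 and 0.26), the itaconate enzyme gene Irg1 (0.27 and 0.25), Isg15 (0.25 and 0.39), Ifit1, Ifit3 and Rsad2. Cxcl16 had no value above 0.13 in either library among its nearest genes, Malat1, Irg1, Fth1, Npc2, Arl5c and Il18bp. Cxcl10 ranked 33 for Cxcl9, with 0.10 and 0.06.

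Genes of the same pathway were read from 8 lists, of which 40 of 46 genes had at least 50 counts in the C1q macrophages. Of these, 25 were higher and 15 lower in the responder library, with a median log2 ratio of 0.24 against −0.09 over all 10749 genes. Of the 40, 7 were at least 2-fold higher and 4 at least 2-fold lower, against 3.87% and 4.22% of all genes. In the interferon-gamma list, 6 of 8 measured genes were higher and 3 were at least 2-fold higher, as were 3.87% of all genes. Among these were the transcription factor gene Irf1 (173 CPM in responder and 51.5 CPM in non-responder cells, log2 ratio 1.75 [1.66 to 1.83]) and the feedback inhibitor gene Socs1 (4.40 and 0.946 CPM, 2.22 [1.62 to 2.87]). The receptor genes Ifngr1 (146 and 171 CPM, log2 ratio −0.23) and Ifngr2 (80.2 and 58.3 CPM, 0.46) stayed within 2-fold, and Ifng itself had 21 responder and 9 non-responder counts there.

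The type I interferon list had 4 of 6 genes higher and none past 2-fold in that direction. Irf7 was at 719.6 CPM in responder and 481 CPM in non-responder cells (log2 ratio 0.58), and the cytokine gene Ifnb1 was lower, at 0.869 and 6.87 CPM (−2.98 [−3.56 to −2.45]). The NF-kB list was split, with Nfkb1 at log2 ratio 0.29 and Tnf at −0.81. Among genes that supply T cells with cytokines, Il27 was at 21.3 CPM in responder and 4.55 CPM in non-responder cells (2.23 [1.96 to 2.51]) and Il15 did not differ beyond counting error (0.09 [−0.07 to 0.25]). Pf4, which encodes a platelet chemokine that can also bind CXCR3, was at 176 CPM in responder and 899 CPM in non-responder cells, a log2 ratio of −2.35 [−2.39 to −2.31]. Of the enzymes that trim or shed the ligands, Dpp4, which truncates CXCL9 and CXCL10, was sparse (53 responder and 18 non-responder counts, log2 ratio 1.05 [0.25 to 1.91]). Adam10 and Adam17, which shed CXCL16, had log2 ratios of −0.04 and −0.24.

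Among the receptors, Cxcr6 was the T cell gene of this set. It lies at chr9:123806475-123811760 on the plus strand and overlaps Fyco1, which had 15.0 CPM in responder and 2.42 CPM in non-responder T cell-like cells. In T cell-like cells Cxcr6 had 1519.5 CPM [1401 to 1645] in the responder library and 428 CPM [367 to 496] in the non-responder library, from 609 and 177 counts, a log2 ratio of 1.83 [1.58 to 2.08]. After thinning it was detected in 89.6% of 77 responder cells and 46.3% of 67 non-responder cells (92.3% and 65.7% at full depth). Among thinned C1q macrophages the shares were 0.356% and 0.0468%. In this class 6.77% of 1906 genes with at least 50 counts were at least 2-fold higher in the responder library and 2.47% at least 2-fold lower. Cxcr6 ranked 35 from the highest ratio. It was at 1.74 and 0.291 CPM in C1q macrophages of the responder and non-responder libraries, and had 0 counts in C1q-low and dendritic-like cells of both. A count of 0 allowed up to 26.0 CPM in responder and 2.03 CPM in non-responder C1q-low cells, and up to 34.5 and 3.82 CPM in dendritic-like cells.

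Cxcr3, on the X chromosome at chrX:101731535-101734269 (minus strand, 2 exons), ran the other way. T cell-like cells had 49.9 CPM [30.5 to 77.1] in the responder library and 135 CPM [102 to 176] in the non-responder library, from 20 and 56 counts, a log2 ratio of −1.44 [−2.26 to −0.68]. It was detected in 11.7% of thinned responder and 26.9% of thinned non-responder cells (16.5% and 40.3% at full depth). C1q-low cells held 1 responder and 4 non-responder counts of Cxcr3, and dendritic-like cells 1 and 7. Mixed droplets held 22 and 12 (17.0 and 32.1 CPM), and the macrophage clusters kept apart 34 and 1. Its ratio in T cell-like cells ranked 1886 of 1906 genes, against the 2.47% of genes at least 2-fold lower. 

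The T cell-like cells fell into 4 sub-clusters that the libraries filled unequally. Sub-cluster L0 held 69 responder cells and no non-responder cell. It was led by Nkg7, Cd8a, Rgs16, Ifng and Gzmb, genes of cytotoxic CD8 T cells, and had 1898 CPM [1739.7 to 2067] of Cxcr6 and 39.4 CPM [19.7 to 70.5] of Cxcr3. Without it, the Cxcr6 log2 ratio was 0.60 [0.20 to 0.99] and the Cxcr3 log2 ratio −0.87 [−2.07 to 0.16], whose interval included 0.

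In L1, led by Tnfrsf4, Penk, Ikzf2 and Foxp3, 7 responder cells had 769.7 CPM [519 to 1099] of Cxcr6 and 25 non-responder cells 251 CPM [177 to 344]. Cxcr3 there was 77.0 CPM [15.9 to 225] and 198 CPM [133 to 282], in the same order of libraries. The cells compared in L1 were unlike, since 5 of 7 responder cells and 2 of 25 non-responder cells had a Cd8b1 UMI, and 3 and 16 had a Foxp3 UMI. In L2, led by Xcl1 and CD8 genes, Cxcr6 did not differ beyond counting error, at 597 CPM [411 to 839] in 7 responder and 693 CPM [561 to 846] in 22 non-responder cells. Cxcr3 was also within error in L2, with 3 and 5 counts. In L3, led by Cd7, Ctsw and Klra genes, Cxcr6 was 586 CPM [335 to 951] and 349 CPM [253 to 470] in 8 responder and 20 non-responder cells, and Cxcr3 109.8 CPM [22.7 to 321] and 171 CPM [106 to 261]. NK cell-like cells had 0 Cxcr6 counts in 4 responder cells and 8 counts in 20 non-responder cells.

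T cell-like cells with a Cd8a or Cd8b1 UMI numbered 87 among responder and 37 among non-responder cells. In these, Cxcr6 had 1587 CPM and 603 CPM, a log2 ratio of 1.40 [1.14 to 1.66]. Cxcr3 had 49.7 CPM and 75.3 CPM from 19 counts each, a log2 ratio of −0.60 [−1.60 to 0.40] that included 0. Cells with a Cd4 or Foxp3 UMI and no CD8 UMI numbered 3 and 19. They held 0 Cxcr3 counts in the responder library and 29 of the 56 T cell-like counts in the non-responder library, where their level was 291 CPM [195 to 418]. Among these few cells Cxcr3 counts of the non-responder library thus came in large part from Cd4 or Foxp3 cells, of which the responder library had 3.

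**Figure D4:**
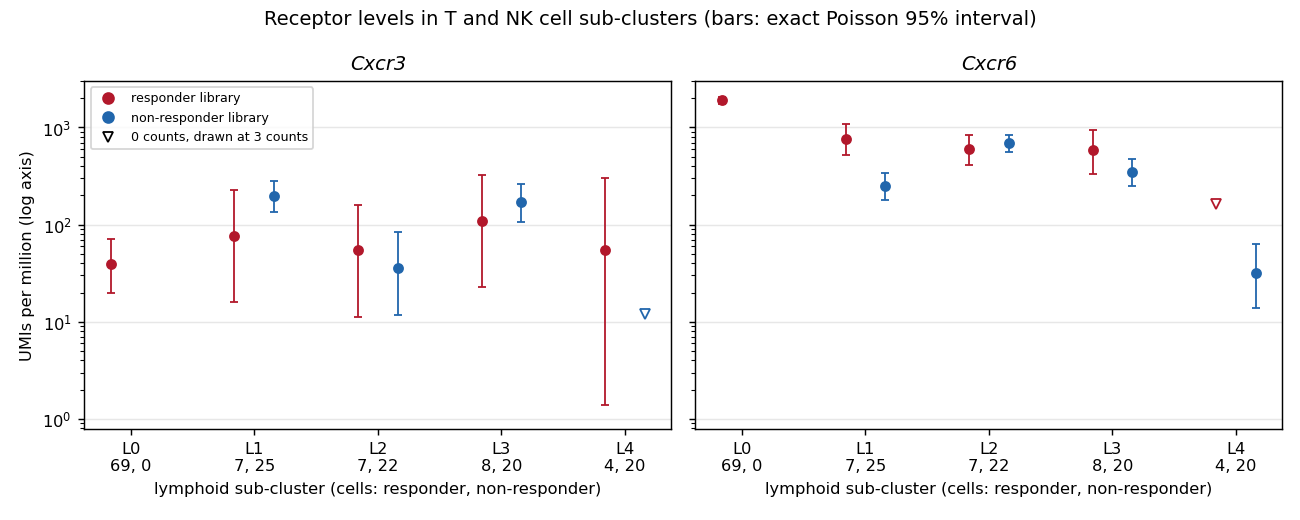
Cxcr3 (left) and Cxcr6 (right) in CPM (log axis) in the T and NK cell sub-clusters, responder in red and non-responder in blue, with exact Poisson 95% intervals and open triangles at 3 counts where none was found. The numbers under each sub-cluster are its responder and non-responder cells. L0, which holds responder cells and no others, has the highest Cxcr6, and Cxcr3 is highest in non-responder cells of L1 and L3, with wide intervals.

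Cxcr3 and Cxcr6 were detected together in few T cells. In thinned T cell-like cells both were detected in 5 of 77 responder cells (6.49% [2.14 to 14.5]) and 6 of 67 non-responder cells (8.96% [3.36 to 18.5]). The product of the single shares was 10.5% and 12.4%, so both ratios were below 1 (0.620 and 0.720). Their intervals included 1, but they take the product as fixed. The responder upper limit of 14.5% exceeds the 11.7% of thinned cells with a Cxcr3 UMI. These intervals therefore cannot show whether the ratios departed from 1. Of 9 responder cells with a Cxcr3 UMI 55.6% also had Cxcr6, against 94.1% of the 68 without. Among non-responder cells the shares were 33.3% of 18 and 51.0% of 49.

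Likeness of the receptors was taken over 27 pools, each 1 cluster of 1 library with at least 20 cells. Over such pools the contrast between lymphoid and myeloid clusters sets most values. Among the genes nearest to Cxcr6 were Lat (0.97), Sh2d2a, Rgs16, Gm19585 and Zap70, of which Lat and Zap70 encode parts of T cell receptor signalling. Cxcr3 was nearest to Cd3g (0.80), Gm8369, Peli1, Cd8a, Ikzf2 and Cd6.

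In T cell-like cells 17 pathway genes had at least 50 counts, and 15 were higher in the responder library, with a median log2 ratio of 0.63 against 0.11 over all 1906 genes. Of the 17, 4 were at least 2-fold higher and 0 at least 2-fold lower, against 6.77% and 2.47% of all genes. Ifng had 706 CPM in responder and 102 CPM in non-responder cells, from 283 and 42 counts, a log2 ratio of 2.80 [2.33 to 3.30]. Sub-cluster L0, which held no non-responder cell, had 239 of the 283 responder counts. Rgs16 was also among the leading genes of L0, and the ratios of this paragraph were not recomputed without it. Rgs16, which encodes a brake on G protein signalling, had a log2 ratio of 2.28 [1.92 to 2.65], and Irf1 of 1.40 [0.81 to 2.02], and Irf8 was 2.14-fold higher. The lymph node homing receptor gene Ccr7 was lower, with 57.4 CPM in responder and 102 CPM in non-responder cells (−0.82 [−1.62 to −0.06]).

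The receptors also differed in how they appeared among macrophages. C1q macrophages held 468 Cxcr3 counts in the responder library (12.0 CPM [10.9 to 13.1]) and 97 in the non-responder library (3.53 CPM [2.86 to 4.30]), a log2 ratio of 1.76 [1.44 to 2.09], opposite in sign to that in T cell-like cells. The class held 85.6% of all Cxcr3 counts of the responder library and 54.8% of those of the non-responder library, beside 84.8% and 83.4% of the cells. After thinning, 3.48% [2.91 to 4.13] of responder and 1.22% [0.796 to 1.78] of non-responder macrophages had a Cxcr3 UMI (9.97% and 3.69% at full depth).

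Set against the Cd3d, Cd3e and Cd3g counts in the same macrophages (237 in responder and 76 in non-responder cells), the ratio of Cxcr3 to Cd3 in T cell-like cells would give 1.99 and 2.65 Cxcr3 counts. For Cxcr6 the same calculation gave 60.7 and 8.38, where 68 [52.8 to 86.2] and 8 [3.45 to 15.8] were counted. Macrophages with no UMI of 7 T cell genes (Cd3d, Cd3e, Cd3g, Cd8a, Cd8b1, Cd2 and Lck) had 12.1 CPM of Cxcr3 in 3311 responder cells and 3.54 CPM in 2054 non-responder cells. Those with such a UMI had 11.0 CPM and 3.30 CPM. Cxcr6 was at 1.04 CPM in the 3311 responder macrophages without a T cell gene and at 7.02 CPM in the 401 with one. In non-responder macrophages Cxcr6 was at 0.190 CPM without a T cell gene and at 2.47 CPM (3 counts) with one. GENCODE M21 lists no gene that overlaps Cxcr3.

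**Figure D5:**
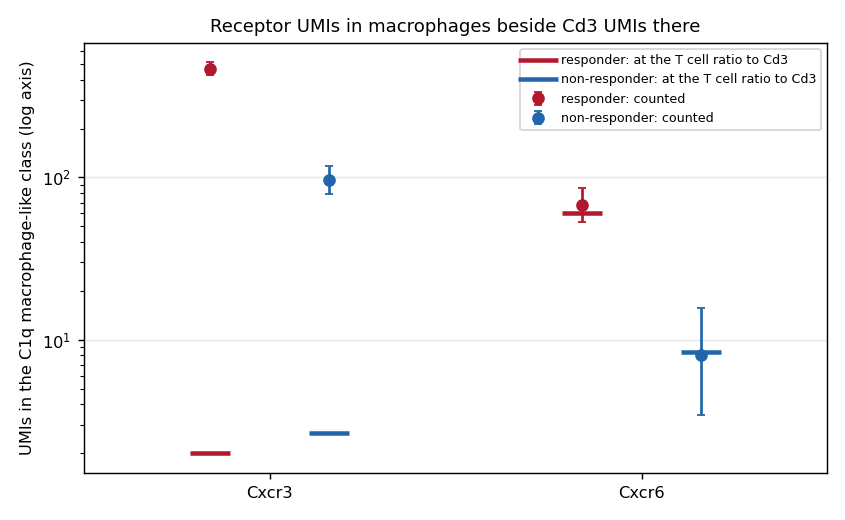
UMIs of Cxcr3 and Cxcr6 counted in C1q macrophage-like cells (points, log axis, exact Poisson 95% intervals), responder in red and non-responder in blue. Short lines give the number expected if the receptor stood to the Cd3 counts in these cells as it does in T cell-like cells of the same library. Cxcr6 lies on its lines and Cxcr3 lies far above them.

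Droplets with both T cell and macrophage RNA were counted separately. Summed over 93 responder droplets, Cxcl9 had 704 CPM, Cxcl16 949.96 CPM and Cxcr6 314.6 CPM. Summed over 24 non-responder droplets, Cxcl9 had 5.35 CPM (2 counts), Cxcl16 792 CPM and Cxcr6 233 CPM. After thinning, both genes of the CXCR6 axis were detected in 49 of 92 responder droplets and 6 of 24 non-responder droplets. Their Cxcr6 made up 37.3% of the counts of the responder library and 31.0% of those of the non-responder library. Counted as T cells, these droplets would bring the Cxcr6 log2 ratio to 0.84 [0.64 to 1.04]. What these droplets hold was not tested.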

How the data were processed

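Per the labels' protocols, CD45+ cells went through the Chromium 3' v3 kit of 10x Genomics, which counts each captured molecule once by its UMI. Cell Ranger 1.1.0 and the builds GRCm38 and mm10 stand in the submitters' processing notes, and the annotation release, the rule that called cells and the use of strand are not stated there. What the authors deposited are filtered matrices of UMI counts, not normalized, 1 for each library. There were 45866561 UMIs over 4425 barcodes in the responder library and 32032569 UMIs over 2580 barcodes in the non-responder library. The intervals given cover counting error and no other effect of depth.

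A barcode was kept with at least 500 genes and at most 10% mitochondrial UMIs, which removed 49 responder and 15 non-responder barcodes. Cells of both libraries were clustered together in scanpy 1.11.5 (counts scaled per cell and log-transformed, 2000 variable genes without the 5 members, 30 principal components, 15 neighbours, Leiden resolution 1.0, seed 1) with no batch correction, and T and NK cells were clustered again (sub-clusters marked L). A marker counted where 10% or more of a cluster's cells had a UMI of it and its level reached 50 CPM. Clusters with 75% of 13 macrophage markers were macrophage-like, and C1q-low where their C1q level was under 6080 CPM, which is 25% of the median of such clusters. Cluster 17 met the 75% limit but was left unnamed. Its cells were shallow for their library and none of its leading genes was a macrophage or monocyte marker. Clusters with 50% of the T cell markers were T cell-like, and those that met both limits were mixed. A dendritic-like cluster needed 3 dendritic markers among its 10 leading genes. Macrophage clusters 7 and 16 had more markers of another class than of their own among those 10 genes and were kept apart. Doublets were not removed beyond the mixed droplets. The members, markers, pathway lists and rules were chosen with earlier results of these data known.

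Counts were summed per class and library and scaled to CPM, with exact Poisson intervals. Shares have Clopper-Pearson intervals, and log2 ratios conditional exact binomial intervals. The log2 intervals were tried on simulated Poisson counts, the model they assume. Such counts leave out the larger spread between cells seen for Cxcl9 and Cxcl10, so this trial cannot show how the intervals cover it. For shares each cell was thinned to 3000 UMIs, and 64 responder and 2 non-responder C1q macrophages and 14 and 0 T cells that were shallower were left out. A count of 0 was set to 3 counts in figures and ratios. With 1 library per group no test was made and cells were not used as replicates. TMM factors came from edgeR 4.0.16 in R 4.3.3. Named genes are the 5 members, measured genes of the 8 pathway lists (46 genes, 45 in the files; Cxcl11 was not analysed here) and the 6 genes most like each member, except a few that are not reported here. Coordinates are from GENCODE M21 by Ensembl identifier. Promoters come from RefSeq for 4 of the 5 members, and none was printed for Cxcl16. Alternatives to these choices are given in the closing section.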

Additional observations from a re-analysis of the deposited data

Results flagged for a closer look

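Cxcr3 had log2 ratios, responder over non-responder, of opposite sign in different cells of the same libraries. In C1q macrophage-like cells it was 1.76 [1.44 to 2.09] and in T cell-like cells −1.44 [−2.26 to −0.68]. The difference between the cell classes was not tested, since each group had 1 library.

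Cxcl16 likewise had a log2 ratio of 0.24 [0.22 to 0.26] in C1q macrophage-like cells and of −0.57 [−1.02 to −0.15] in C1q-low myeloid cells, a class of 19 responder and 182 non-responder cells. This difference was not tested either. The C1q-low class was 1 cluster with 5511 CPM of C1q RNA, close to the limit of 6080 CPM that defined it. At clustering resolutions 0.5 and 2.0 the thinned non-responder C1q macrophage-like class held 2325 and 2321 cells, against 2137 as reported. The ratios of the C1q-low class were not recomputed at those resolutions.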

How the results depend on the processing

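Of 112 recomputed values for 13 results, 85 stayed within the interval of the reported value (for shares of genes, within 1.5 times it), 26 moved further and 1 reversed. The Cxcl9 ratio in C1q macrophages stayed positive under all 12 alternatives, at 3.47 with classes from a gate on each cell, 3.66 with TMM factors, 3.65 after thinning to 3000 UMIs, 3.45 with clusters 7 and 16, and 2.21 with shared clusters weighted equally. TMM moved every ratio in this class by 0.12. The Cxcl10 ratio was 0.56 at both clustering resolutions 0.5 and 2.0, 0.61 with the gate, 0.64 with TMM, 0.48 after thinning and 0.44 with clusters 7 and 16. It reversed to −0.22 with shared clusters weighted equally. The Cxcl16 ratio was 0.27 at both resolutions and with clusters weighted equally, 0.35 with TMM, 0.20 as a mean over cells and 0.17 after thinning. The T cell ratio of Cxcr3 was −0.60 in cells with a CD8 UMI and negative under all 13 alternatives, and its interval also included 0 without the sub-cluster of 1 library. That of Cxcr6 was 0.84 with mixed droplets, 1.40 in CD8 cells and 0.60 without that sub-cluster. Co-detection of Cxcl9 and Cxcl10 over the product was 1.16 at 1500 UMIs and 1.15 with clusters weighted equally in responder cells, and 0.661, below instead of above 1, with clusters weighted equally in non-responder cells, where the reported interval also included 1. Counting genes from 1 UMI on, 6.65% of genes in macrophages and 7.51% in T cells were at least 2-fold lower in the responder library, against 4.22% and 2.47%. Clusters 7 and 16, shared barcodes, CD8 cells and the sub-cluster were alternatives chosen after seeing the data. No paired analysis was possible because each group had 1 library. The causes of these moves were not tested. Dendritic-like and C1q-low responder cells (11 and 19) limit what their values can show, and Cxcr3 in T cells rests on 20 responder and 56 non-responder counts.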
